A study of Mus musculus with 2 samples.

Results

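Nearly all N6-methyladenosine (m6A) positions listed from nanopore direct RNA reads in this study lay in the sequence RRACH, to which the study restricted its comparison of callers, and the positions described here were those with an adenine, not a guanine, just 5' of the target adenine. They were taken from 17 lists of m6A positions that 10 tools gave for poly(A) RNA of mouse 129 embryonic stem cells, wild type (WT) or knocked out for Mettl3 (KO). A member was a unique chromosome, position and strand whose 5-mer in the GRCm38 genome followed RRACH (R, A or G; H, A, C or T; the third base is the target) with A as the second base. These were 60998 of the 159786 listed RRACH positions (38.2%), and 160430 positions were listed in all. The other 98788 RRACH positions carried G at that place, and the 2 sets are called the A class and the G class.

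Each genotype was represented by 1 library. The KO cells carried resistance genes for puromycin and hygromycin in place of Mettl3 exons 5 to 7 on both alleles, and were grown from picked colonies, so clone and genotype cannot be told apart. Both libraries were sequenced with the SQK-RNA002 kit on a MinION. There were separate lists for WT and KO from 7 tools (Epinano, ELIGOS, m6Anet, MINES, Nanom6A, Tombo and xPore). xPore fits both libraries in 1 model and tests their difference, so its WT and KO lists are not separate calls of each library. From the other 3 (DiffErr, DRUMMER and Nanocompore) there was a single list of positions that differed between WT and KO, called a comparison list here. The lists held positions and no reads, so the depth behind each position is unknown. With no replicate library, all intervals below are 95% intervals that cover counting error over positions only, many positions share a gene, and no p-value was computed. Intervals of differences within genes take no spread from a class with 1 position in a gene. They are too narrow where genes hold few positions.

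m6A is the most common internal modification of mRNA. A complex of METTL3 and METTL14 writes it at a minority of the adenines that sit in DRACH sequences (D, any base but C), with RGAC the usual core and GGACT the best known form, and the mark is concentrated around stop codons and in long last exons. In a nanopore the current depends on about 5 bases at a time, so the base next to the target changes the signal whether or not the target is methylated. Removal of Mettl3 is commonly used to separate calls that depend on the writer from calls that do not.

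The members that the results turn on are shown as 25-base windows of the genome, 5' to 3' on the listed strand, with the 5-mer in capitals. The first 5 had the most tools in WT or comparison lists among the members in no KO list, members of a chromosome left out of the printed sequences aside. Ties went by genomic order, as with Ube2f.
Dph3, chr14:32082939-32082963, minus strand: gccttattatAAACTgtggtttttc
Zfp57, chr17:37010311-37010335, plus strand: ctatcttcatGAACCcgtggtgctg
Ctsd, chr7:142376072-142376096, minus strand: gcaaaactatGAACCtggggggtta
Rps6ka1, chr4:133847849-133847873, minus strand: ctcactgtacAAACTattttttaag
Ube2f, chr1:91285756-91285780, plus strand: aacccgctatAAACTgtgattggat

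The next 5 were listed by the most tools in both WT and KO.
Ldha, chr7:46854057-46854081, plus strand: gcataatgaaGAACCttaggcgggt
Gm15501, chr7:93179052-93179076, minus strand: cgaaggcaagGAACTggagttctat
Tkt, chr14:30573528-30573552, plus strand: ctgggtgggtGAACTacacattcca
Polr2h, chr16:20722164-20722188, plus strand: atgcagtggaAAACCgactctccct
Rpl31, chr1:39371349-39371373, plus strand: taaagttgcaGAACTgccttcaggg

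The last 3 were the only members in all 3 comparison lists.
Rpl5, chr5:107903313-107903337, plus strand: atatgcacatGAACTtccaaaatat
Rps21, chr2:180258368-180258392, plus strand: cctttgttagGAACTtttgagcaga
mt-Co3, chrM:9064-9088, plus strand: aaggtaaacgAAACCacataaatca

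The A class was rare in lists that compared WT with KO, and its share was higher in the KO list than in the WT list of 6 tools. On the listed coding transcripts, 244741 of 504297 RRACH positions (48.5%) were of the A class, and this share is the background for each list. In WT the A class made up 48.4% of RRACH positions listed by Nanom6A, 43.1% by m6Anet, 40.3% by Epinano, 19.9% by Tombo, 18.7% by ELIGOS and 15.3% by xPore. Neighbouring tools in this order had separate intervals, except that those of Tombo (19.6 to 20.2) and ELIGOS (17.7 to 19.7) overlapped. Of all 159786 listed RRACH positions of both classes, the WT lists of these 6 tools in the same order held 20.7%, 14.7%, 27.9%, 47%, 3.74% and 3.36%. Nanom6A alone had a WT share whose difference from the background included 0, at -0.152 points (-0.707 to 0.404). MINES reports G-class motifs alone by design, so its lists could hold no member.

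In KO the A-class share was higher for each of these 6 tools. It reached 59.6% (58.8 to 60.4) for Epinano, 58.2% for Nanom6A and 55.9% for m6Anet, all above the background. For ELIGOS it was 50.1% (47.6 to 52.6), whose interval held the background. Within genes the A-class share of ELIGOS KO positions was 1.98 points (0.760 to 3.21) above that of unlisted positions. For Tombo the KO share was 23.4% and for xPore 31.5%, both below the background. The KO lists of Epinano, Nanom6A, m6Anet, ELIGOS, Tombo and xPore held 9.45%, 17.2%, 8.52%, 0.968%, 42.5% and 1.49% of all listed RRACH positions. In the comparison lists the A class supplied 220 of 2107 RRACH positions of Nanocompore (10.4%, 9.21 to 11.8), 76 of 1752 of DiffErr (4.34%, 3.48 to 5.40) and 24 of 1267 of DRUMMER (1.89%, 1.28 to 2.80). The 3 intervals did not overlap. Over both classes these lists held 1.32%, 1.1% and 0.793% of all listed RRACH positions. Expressed per 1000 positions of each class on the transcripts, G-class positions were listed 8.23 times as often as A-class positions by Nanocompore, 21.5 times by DiffErr and 52.8 times by DRUMMER, against 1.01 times by Nanom6A in WT.

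**Figure D1:**
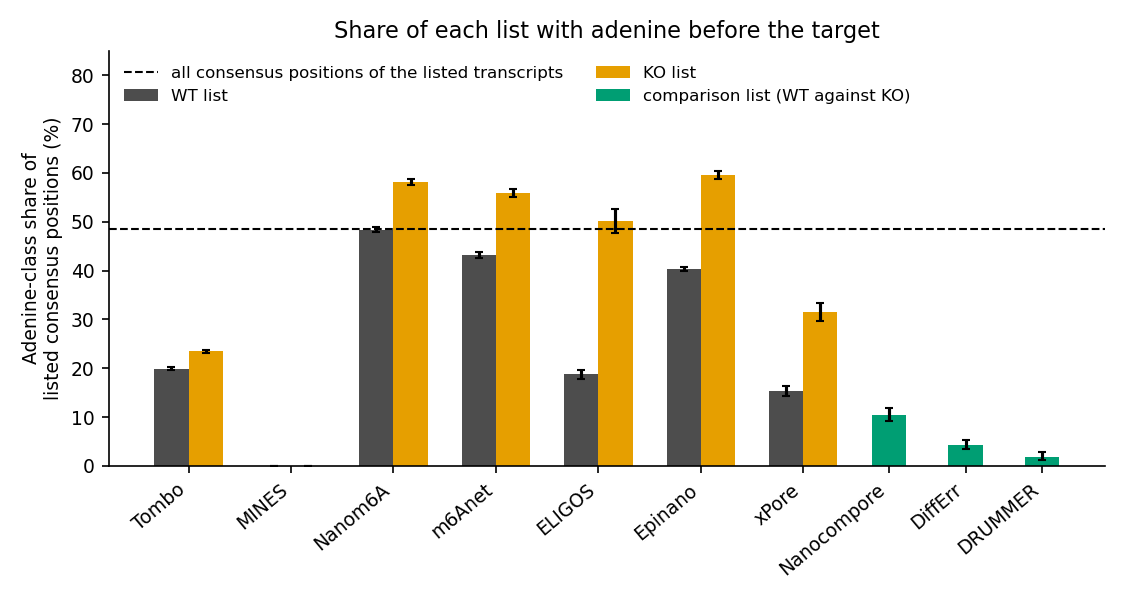
Share of the listed RRACH positions that had adenine before the target, in percent, for the WT list (grey), the KO list (orange) and the comparison list (green) of each tool; error bars are 95% Wilson intervals and the dashed line is the share among all RRACH positions of the listed coding transcripts (48.5%). Each KO bar stands above its WT bar except for MINES, which has no member, and the 3 comparison lists lie between 1.89% and 10.4%.

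A-class positions were also shared less between tools. Of the 47902 members in WT or comparison lists, 10697 (22.3%, 22.0 to 22.7) were listed by at least 2 of the 10 tools, against 34090 of 80648 G-class positions (42.3%); over both classes 34.8% were. The difference was -19.9 points (-20.4 to -19.4). Since MINES could list no member, the count over 10 tools favours the G class, and without it the shares were 22.3% and 36.0%, a difference of -13.7 points (-14.2 to -13.2). With Tombo left out as well they were 17.1% and 26.5%, and the difference was -9.41 points (-9.96 to -8.85). With MINES left out, at least 6 tools listed 14 of the 47902 members and 2162 of the 79331 G-class positions. At least 8 listed 3 and 655 of them, and all 9 listed 0 and 202.

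The tool that listed a member was often alone. This held for 71.3% of the members in the Epinano WT list, 63.0% for Tombo, 56.4% for Nanom6A and 54.2% for m6Anet, and for 28.3% and 21.6% with xPore and ELIGOS. For the G class the shares were 34.3%, 48.9%, 22.8%, 17.2%, 5.50% and 5.13% in the same order. With MINES not counted as another tool they were 35.8%, 57.3%, 23.1%, 17.5%, 5.55% and 5.26%. Tombo listed 17.7% of the members in the Nanocompore list and 81.5% of the G-class positions in it. It listed 21.1% of the members that xPore listed in WT, against 83.2% for the G class. Nanom6A differed from this, since its WT list held 198 of the 220 Nanocompore members, 74 of the 76 of DiffErr (97.4%) and all 24 of DRUMMER, against 91.9%, 90.2% and 91.3% for the G class.

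**Figure D2:**
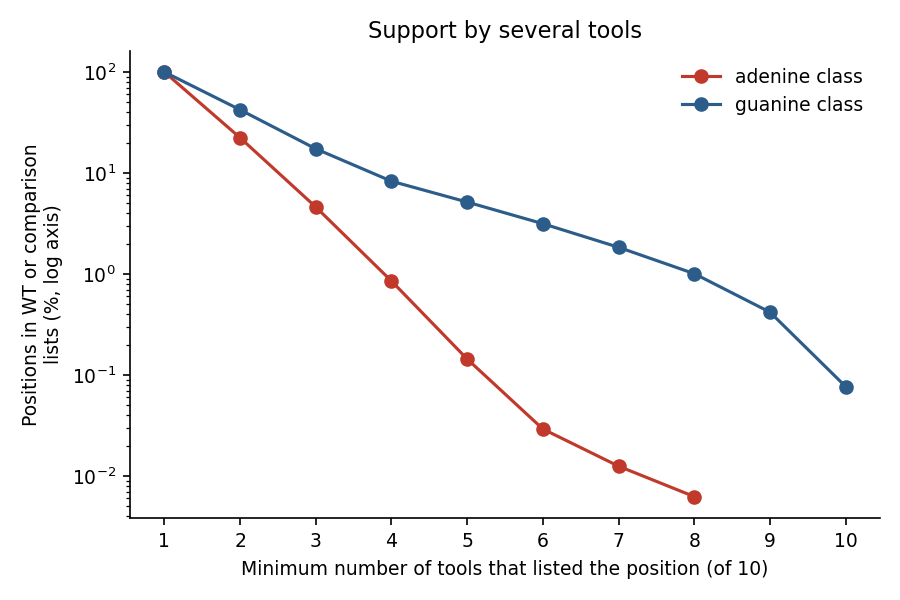
Percent of positions in WT or comparison lists (log axis) that were listed by at least the number of tools on the horizontal axis, for the adenine class (red, 47902 positions) and the guanine class (blue, 80648 positions). The red line ends at 8 tools with 3 positions, and the blue line reaches 10 tools with 62; MINES, which reports no adenine-class motif, is among the 10.

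The 6 members with the most tools were picked out after their values were seen. Yeats4, which encodes a chromatin reader, G3bp1, which encodes a stress granule protein, and Tmem11, which encodes a mitochondrial membrane protein, each held a member listed by 8 tools, with DRUMMER and MINES missing. In KO these 3 were listed by Nanom6A alone. The other 3 were listed by 7 tools and lay in Dph3, a diphthamide synthesis gene, Zfp57, whose zinc finger protein maintains imprints, and the tubulin gene Tubb5. The Dph3 and Zfp57 positions were in no KO list, while the Tubb5 position was listed again in KO by Nanom6A, m6Anet and Epinano. The target lay in the 3'UTR, 232 nt after the stop codon, in Dph3 and 103 nt after it in G3bp1, and in the CDS 56 nt before it in Yeats4, 151 nt before it in Tmem11, 196 nt before it in Zfp57 and 469 nt before it in Tubb5.

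The 8-tool members and 2 of the members shown above had the same letters around the target. These are their windows.
Yeats4, chr10:117215713-117215737, minus strand: gtgaaactatAAACTgtttaaaaaa
G3bp1, chr11:55499757-55499781, plus strand: agtctattatAAACTgcttgagttt
Tmem11, chr11:60864973-60864997, minus strand: tgatgcctatAAACTgtcccgcctg

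Together with Dph3 and Ube2f they held TATAAACTG, read on the transcript strand, with the target at the sixth letter. This string surrounded 179 of the 42934 AAACT positions on the transcripts (0.417%). Of these 179, a WT or comparison list held 61 (34.1%, 27.5 to 41.3), against 19.7% (19.3 to 20.04) of the other AAACT positions. Without the 5 named members the share was 32.2% (25.7 to 39.4), and a KO list held 22.4% (16.9 to 29.2) of the remaining 174 against 17.3% of the other AAACT positions. Of the 174, m6Anet listed 13 in WT (7.47%, against 2.69% of the other AAACT positions), Epinano 33 (18.97% against 8.58%) and xPore 4 (2.30% against 0.767%). With overlapping intervals, Nanom6A listed 18 (10.3% against 7.41%) and Tombo 5 (2.87% against 4.65%), and ELIGOS listed none. In KO m6Anet listed 5 of them (2.87% against 0.671%), Epinano 12 (6.90% against 5.17%), Nanom6A 21 (12.1% against 7.85%) and Tombo 3 (1.72% against 5.78%), and xPore and ELIGOS none; the intervals of Epinano and Nanom6A overlapped here. The 5 members of the comparison lists with this string were 4 of the named ones and 1 other. The string was noticed in these same lists, so the shares are a description.

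Few members were in a comparison list, and nearly all of those were in a KO list as well. Of the members in WT or comparison lists, 277 (0.578%, 0.514 to 0.650) were in at least 1 comparison list, against 2889 (3.58%, 3.46 to 3.71) of the G class and 2.46% over both classes. All 3 comparison lists held 3 members and 516 G-class positions, and over both classes the percent was 0.404. DiffErr and DRUMMER shared 15 members, which was 15 of the 24 DRUMMER members and 15 of the 76 DiffErr members. For the G class they shared 1102, out of 1243 and 1676.

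A KO list also held 261 of the 277 members (94.2%, 90.8 to 96.4), against 2161 of the 2889 G-class positions (74.8%), a difference of 19.4 points (15.7 to 22.1). Nanom6A accounted for most of this overlap, since its KO list held 248 of the 277 (89.5%) and 44.6% of the G-class positions. With its KO list left out, the difference turned to -14.4 points (-20.4 to -8.21). Within genes that held both classes the difference was 2.30 points (0.344 to 4.26) with all KO lists. That interval is too narrow to be read against 0, since 143 of the 189 genes with such members held 1. Tombo listed 15.2% of the 277 in KO and 39.4% of the G-class positions. The direction therefore differed between KO lists.

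The comparison-list members lay in 189 genes, and 152 of these (80.4%) also held a G-class position in a comparison list. The 10 genes with the most held 50 of the 277 (18.1%). Eef1a1, the translation elongation factor, had 9, out of 10 A-class positions on its transcript, and all 14 of its G-class positions were in comparison lists too. All 10 of its A-class positions and all 14 of its G-class positions were listed in both WT and KO. mt-Co1 and mt-Co2, subunits of cytochrome c oxidase made in mitochondria, had 9 of 11 and 6 of 10. The remaining 7 were Rpl17 with 5, the ferritin gene Ftl1, the histone gene H2afx and the chaperone gene Hsp90aa1 with 4 each, and the elongation factor gene Eef2, the chaperone gene Mesd and the mismatch repair gene Msh6 with 3 each. On mitochondrial transcripts 24 of the 149 members and 6 of the 41 listed G-class positions were in comparison lists, where the shares over all transcripts were 0.454% and 2.92%.

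The 3 members in all comparison lists were each listed again in KO by Nanom6A. The Rpl5 position was in the CDS, 646 nt before the stop codon and 56 nt from an exon junction, and 6 tools listed it. The Rps21 position lay 5 nt before the stop codon and 2 nt from a junction, so that its genomic window above runs into the intron. The mt-Co3 position was listed by 4 tools. Rpl5 and Rps21 encode ribosomal proteins that have processed copies in the genome, and reads of such copies could not be examined here.

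In the KO list the A class was repeated more than the G class by all 6 tools that listed both, each set against its own KO list. With the KO lists of all tools pooled the shares lay close together, and 58.7% of the A class and 59.2% of the G class in WT or comparison lists were also in a KO list. For Nanom6A, 12217 of 16030 WT members (76.2%, 75.5 to 76.9) were listed again, against 55.1% of the G class, with 65.3% over both classes. For m6Anet the shares were 47.3% and 24.6% (both classes 34.4), for ELIGOS 28.7% and 7.48% (11.5), for Epinano 24.9% and 10.8% (16.5) and for xPore 60.4% and 18.5% (24.9). The difference was largest for xPore, 42.0 points (38.4 to 45.4), whose 2 lists come from 1 joint model, and smallest for Tombo, whose shares were 61.6% and 59.3% (both classes 59.7) and differed by 2.32 points (1.45 to 3.19). Within genes that held both classes the differences ranged from 0.839 points (0.165 to 1.51, Tombo) to 39.0 points (37.1 to 40.9, xPore). With a KO list of any tool counted, the difference was -2.64 points (-3.58 to -1.70) for Epinano and -1.02 points (-2.26 to 0.217) for m6Anet. It was then 3.74 points for Tombo, 4.42 for ELIGOS, 5.03 for Nanom6A and 16.1 for xPore.

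Numbers of listed positions moved the same way. Tombo listed 14977 A-class positions in WT and 15918 in KO, a ratio of KO to WT of 1.06 (1.04 to 1.09), and the ratio was 0.996 for Nanom6A (0.975 to 1.02), 0.916 for xPore (0.829 to 1.01), 0.752 for m6Anet, 0.694 for ELIGOS and 0.502 for Epinano. The G-class ratios were 0.865, 0.672, 0.360, 0.450, 0.159 and 0.229. Each was below that of the A class, without overlap of the intervals. The study gives nearly equal read numbers for both libraries, but the lists hold no depth per position, and its part in these ratios was not tested. The opposite share, of KO positions found again in WT, was lower for the A class with Tombo (57.9% against 68.5%), Nanom6A (76.5% against 82.0%) and ELIGOS (41.4% against 47.1%). It was higher with m6Anet (62.9% against 54.7%), Epinano (49.7% against 47.3%) and xPore (65.96% against 51.3%).

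**Figure D3:**
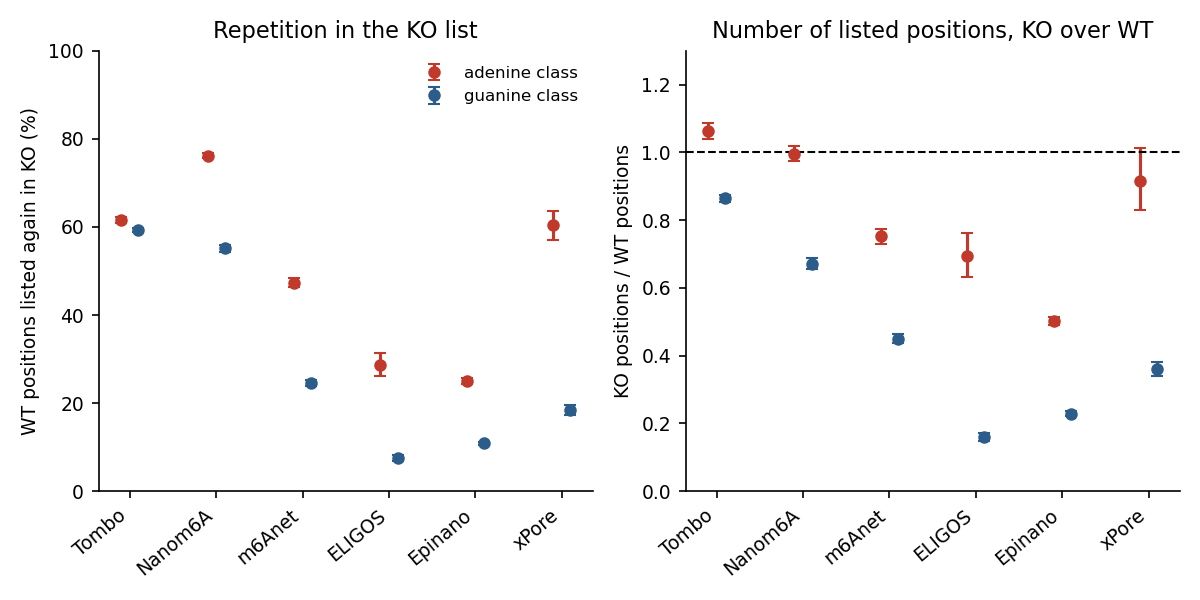
Left, percent of the WT positions of each tool that the same tool listed again in KO; right, number of KO positions divided by number of WT positions (dashed line, 1); red is the adenine class, blue the guanine class, and error bars are 95% intervals over positions. The red point stands above the blue point for each tool in both panels, and by least for Tombo on the left, at 61.6% against 59.3%.

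Because the 6 A-class 5-mers differ from the 6 G-class 5-mers in the second base alone, each can be set beside its partner, which gave 36 pairs over the 6 tools. The A-class partner was repeated more in KO in 29 pairs, less in 3, and in 4 the interval of the difference held 0 (the intervals were not adjusted for the number of pairs). Nanom6A, ELIGOS and Epinano had the higher share on the A side in all 6 pairs each. xPore listed again 67.5% of its GAACT positions but 1.54% of its GGACT positions, the widest gap of all, and 90.8% of GAACC against 30.6% of GGACC; its AAACC positions went the other way, at 77.4% against 90.3%. With Tombo the direction differed with the last base. Its AAACA positions were repeated less than its AGACA positions (60.7% against 73.7%), and so were those of GAACA beside GGACA (56.5% against 68.7%). The pairs that ended in C were repeated more on the A side, as was AAACT, while GAACT differed from its partner by -1.61 points (-4.16 to 0.977).

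In WT the G-class partner was listed at the higher rate per position in 30 of the 36 pairs. The exceptions on the A side included AAACA with Nanom6A, at 81.1 per 1000 against 32.6 for AGACA, and GAACT with m6Anet, at 154 per 1000 against 133 for GGACT. Of the A-class 5-mers, GAACT supplied 6096 of the 10110 m6Anet members in WT, and the tool listed 12 members with AAACA there and 3 members with AAACC. Of the GAACT members m6Anet listed 60.2% (59.0 to 61.4) again in KO, but among its 1177 members with AAACT this share was 11.1% (9.46 to 13.1). The most frequent 5-mer of the 277 comparison-list members was GAACT, with 96 members, before AAACT, with 66.

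The run of adenines that ends at the target is 2 long in GAACH and 3 or longer in AAACH. m6Anet listed 78.0 per 1000 positions of GAACH in WT, and within AAACH it stayed between 7.52 and 10.7 per 1000 whatever the run, so its rate differed with the first base of the 5-mer. Within AAACH, ELIGOS listed 4.57 per 1000 at a run of 3 and 12.8 per 1000 at 6 or more, where its KO list held 14.5 per 1000 and 51.0% (37.7 to 64.1) of 51 WT members were listed again. Tombo listed 56.7 per 1000 at 3 and 71.7 at 6 or more in WT, and 65.1 and 83.8 in KO. Nanom6A went the other way, from 80.9 at 3 to 44.6 at 6 or more in WT and from 83.1 to 53.2 in KO. xPore was at its lowest at 6 or more, with 3 members.

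Around the stop codon the A class was listed more often than its background, and in the WT lists less than the G class. On the transcripts 12.1% of A-class and 13.4% of G-class positions lay within 200 nt of the stop codon. Among WT members on coding transcripts the share was 20.2% for Tombo, 20.8% for Epinano, 26.5% for m6Anet, 27.7% for ELIGOS, 28.6% for Nanom6A and 29.7% for xPore. The G class had 23.1%, 28.1%, 35.4%, 41.4%, 33.9% and 43.9%, and the interval of each of the 6 differences lay below 0. Within genes these differences kept their direction, from -15.2 points (xPore) to -2.68 points (Tombo).

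In KO the A-class share near the stop codon was 19.2% for Tombo, 17.96% for Epinano, 23.0% for m6Anet, 23.8% for ELIGOS, 27.9% for Nanom6A and 25.6% for xPore. Each was above the background, which counts positions with or without reads, and the part of depth along the transcript was not tested. The study, with its own background, reported no clear enrichment of its KO sites around stop codons. Divided by the background of its own class, the A-class share in KO was 1.59 for Tombo, 2.31 for Nanom6A, 1.90 for m6Anet, 1.97 for ELIGOS, 1.49 for Epinano and 2.12 for xPore. The same ratio for the G class was 1.504, 2.26, 1.90, 1.84, 1.48 and 3.01, below that of the A class or near it except for xPore. Without this division the classes differed by -0.845 points (-5.21 to 3.52) for ELIGOS and -0.903 points (-1.61 to -0.186) for Tombo, and by -14.7 points (-18.6 to -10.7) for xPore. In comparison lists 89 of 215 Nanocompore members on coding transcripts (41.4%, 35.0 to 48.1), 33 of 73 DiffErr members (45.2%, 34.3 to 56.6) and 8 of 22 DRUMMER members (36.4%, 19.7 to 57.0) were near the stop codon. The G-class shares were 52.9%, 54.3% and 54.0%, and the interval of the difference held 0 for DiffErr and DRUMMER. Within genes DRUMMER turned to 12.7 points (1.02 to 24.3), an interval too narrow to be read against 0 with so few members. Within 400 nt the Nanocompore difference was -2.45 points (-9.21 to 3.70).

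The rate in the first 200 nt after the stop codon was 2.42 times the rate 600 to 800 nt before it for ELIGOS members in WT and 1.54 times in KO, against 6.61 and 1.48 times for the G class. For xPore members the ratios were 1.83 in WT and 1.64 in KO, against 7.06 and 5.21. Nanom6A had 1.80 and 1.70 for the A class and 2.71 and 1.66 for the G class. The A-class profile thus differed less between the libraries than the G-class profile with these 3 tools, as a description of the lists. For Nanocompore members the ratio was 5.98, from 52 and 7 listed positions.

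**Figure D4:**
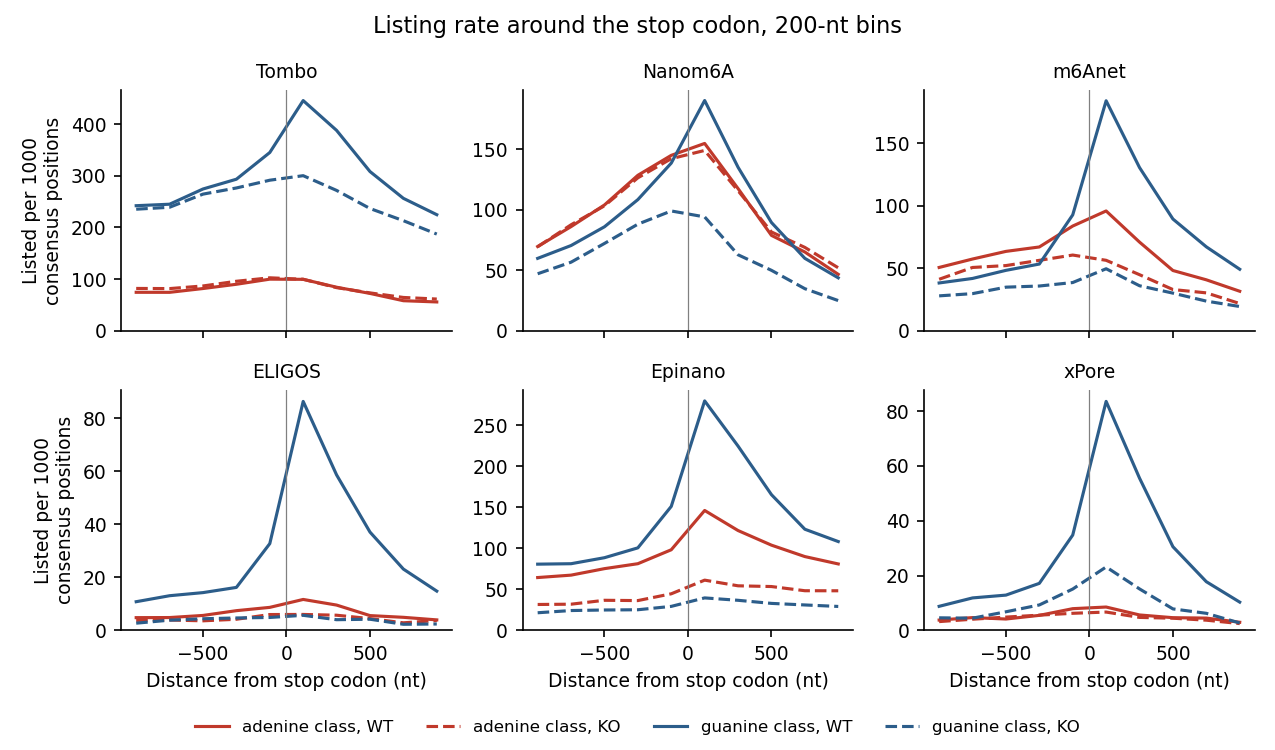
Listed positions per 1000 RRACH positions of the same class on the transcripts, in 200-nt bins from 1000 nt before to 1000 nt after the stop codon, for 6 tools; red is the adenine class, blue the guanine class, solid lines WT and dashed lines KO, and the vertical scale differs between panels. After the stop codon the solid blue line of ELIGOS reaches 86.2 per 1000 and its solid red line 11.6, and with Nanom6A the solid and dashed red lines lie close together, at 155 and 149.

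Near exon junctions the classes differed by an amount that depended on the tool. On the transcripts 39.8% of A-class and 46.1% of G-class positions lay within 100 nt of a junction. Of the G-class positions 15.2% did so in the xPore WT list, 18.1% with ELIGOS and 30.0% with m6Anet, and 14.4%, 10.5% and 11.05% with Nanocompore, DiffErr and DRUMMER, far below that background. In the WT lists of Tombo and Nanom6A the G-class share was 44.6% and 47.7%, the latter above the background by 1.61 points (0.825 to 2.39). Members in the same lists lay near junctions in 44.2% (40.8 to 47.7), 43.6% (40.7 to 46.6), 48.4% (47.4 to 49.4), 37.2% (31.0 to 43.8), 46.6% (35.6 to 57.9) and 59.1% (38.7 to 76.7) of cases. The difference of the A class from its own background included 0 for the 3 comparison lists and was above 0 for xPore, ELIGOS and m6Anet. Epinano alone among the WT lists had members less often near junctions than the background, at 33.1% (32.4 to 33.8).

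The classes differed by 29.1 points (25.5 to 32.6) for xPore in WT and by 25.5 points (22.3 to 28.6) for ELIGOS, and within genes by 18.8 and 17.7 points. The difference was 18.4 points for m6Anet, 7.07 for Epinano, 5.15 for Nanom6A (1.0004 within genes) and 2.115 for Tombo (1.10 within genes). For Nanocompore and DiffErr the differences of 22.8 and 36.1 points became 2.13 points (-1.82 to 6.07) and 2.36 points (-5.46 to 10.2) within genes, whose intervals held 0. For DRUMMER 48.0 points became -10.1 points (-21.8 to 1.51), over 22 members. In KO the difference was 13.9 points (9.67 to 18.2) for xPore and 1.09 points (-0.607 to 2.79) for m6Anet. The direction turned for Tombo, Nanom6A, ELIGOS and Epinano, whose A-class positions lay near junctions less often than their G-class positions, by -5.09, -8.44, -9.14 and -6.45 points. Within genes these differences were -3.39, -5.03, -18.2 and -5.36 points. The backgrounds of the classes differ in the same direction (39.8% and 46.1%). Relative to its own background the A class was at 6.20, 10.7, 2.29 and -5.69 points in these 4 lists, and the G class at 4.99, 12.8, 5.13 and -5.54 points.

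**Figure D5:**
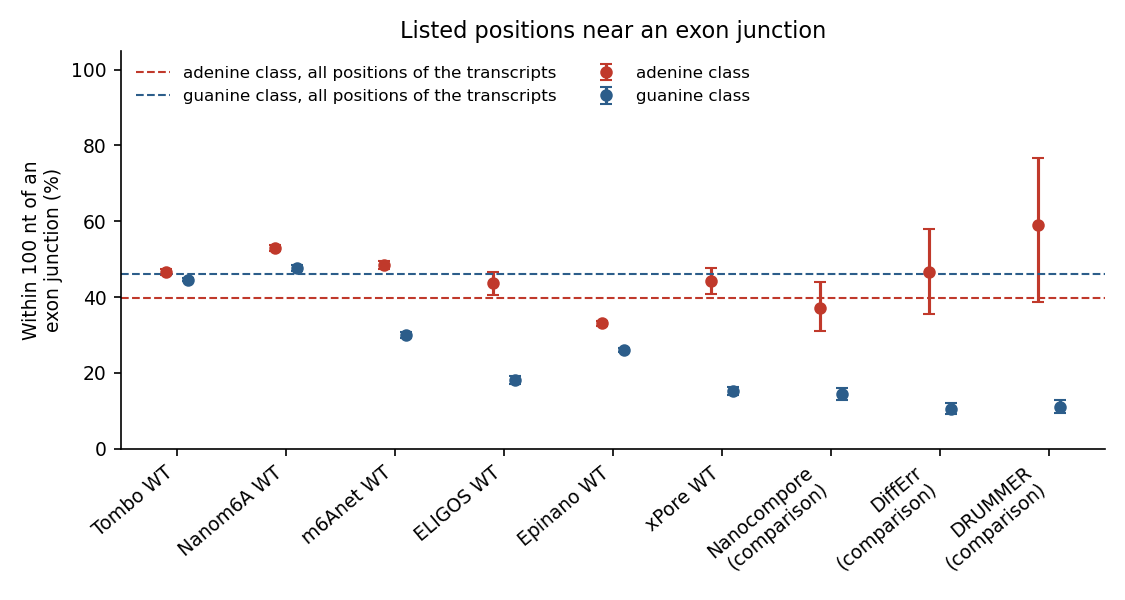
Percent of listed positions on coding transcripts that lay within 100 nt of an exon junction, for the adenine class (red) and the guanine class (blue) in the WT list of 6 tools and in the 3 comparison lists, with 95% Wilson intervals; dashed lines are the shares among all RRACH positions of each class on the transcripts (39.8% and 46.1%). The blue points of ELIGOS, xPore and the comparison lists lie between 10.5% and 18.1%, and the red points of the same lists between 37.2% and 59.1%.

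Few members had a G-class sequence close by, but where one was present the Nanom6A, m6Anet and Epinano WT lists held it more often beside a member than beside an unlisted position. The targets of the 2 classes cannot be closer than 4 nt. A G-class sequence lay within 5 nt of 2.98% of Nanom6A members in WT, and of these 460 members 49.3% had it in the same list, against 2.18% of the A-class positions with such a sequence that Nanom6A did not list. The shares were 29.2% and 3.05% for m6Anet, 25.9% and 5.96% for Epinano, and 18.5% and 20.01% for Tombo. Counted over all members, 1.47% (1.29 to 1.67) of those of Nanom6A in WT had a G-class neighbour in the same list. The share was 0.0515% for the A-class positions that Nanom6A did not list, some of which may lack reads. The difference was 1.42 points, and 0.751 points (0.586 to 0.917) within genes. It was 5.42 points within 10 nt and 12.1 points within 20 nt, so it was not confined to 5 nt. The shares given a nearby sequence were not computed within genes. For the other WT lists the share of all members with a G-class neighbour in the same list was between 0.276% and 0.651%. Such a neighbour was present for 2 members each of Nanocompore and DiffErr. The Klf2 member was listed by Nanom6A and DiffErr, with Nanom6A again in KO. Its window follows, and a G-class target 4 nt downstream was listed by 7 tools, 2 of them comparison lists.
Klf2, chr8:72320978-72321002, plus strand: gtccccttgcAAACAgactgctatt

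Members were spread over 9748 of the 10486 genes with a listed RRACH position, with a median of 5 per gene. Top2a, the topoisomerase of dividing cells, held the most, 47, of which 45 were in WT or comparison lists and 38 in KO, out of 55 A-class positions on its transcripts. The splicing factor gene Sf3b1 and the condensin gene Smc4 had 46 each, the translation factor gene Eif4g2 and the deadenylase gene Noct 43 each, and Cnot1, Kpnb1, Nedd4, Trip12 and Nap1l1 between 39 and 41. Among these 10 genes Eif4g2 had a member in a comparison list, 1 in number, where 0.454% of all 60998 members were in such a list. In genes with at least 20 listed positions the A-class share ranged from 0% to 90.9%, with a median of 38.1%, and it was below that of the transcripts in 2511 (83.9%) of those with a transcript share.

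Among the 12 genes that mark embryonic stem cells all had members, 141 in total, with 137 in WT or comparison lists and 116 in KO. Over all genes 78.5% of members were in WT or comparison lists and 67.6% in KO. Comparison lists held 2 of these 141, in Klf2 and Zfp42, and 37 of the 178 G-class positions of the same genes, spread over 11 of them, where the shares over all genes were 0.454% and 2.92%. Pou5f1 had all 11 of its A-class positions listed in both libraries and none in a comparison list, where 2 of its 14 G-class positions were. Nanog had 17 members, 16 in WT and 17 in KO. The Zfp42 member was listed by Nanom6A, xPore and Nanocompore, 226 nt before the stop codon, and by Nanom6A in KO. Of 8 fibroblast genes that would mark feeder cells 1 had a member (Thy1, 1 member in KO), and of 6 early differentiation genes 1 had any (Sox17, 3 members in WT and 0 in KO).

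Genes of the m6A machinery, the writer partners, the erasers and the readers, held 182 members in 17 of 18 genes, 130 in WT or comparison lists and 108 in KO (over all genes 78.5% and 67.6%), and Hakai had no match under that symbol because it is listed as Cbll1. None of the 182 was in a comparison list, while 7 of the 296 G-class positions of these genes were, in Ythdf1 and Ythdf2, which encode cytoplasmic m6A readers. Over all genes 277 of 60998 members (0.454%) and 2889 of 98788 G-class positions (2.92%) were in a comparison list, so at that share fewer than 1 of the 182 would be. Ythdf2 had 5 members in WT lists and 13 in KO lists, and the demethylase gene Alkbh5 14 and 7.

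Mettl3 itself held 5 members, and none was listed in both libraries. In WT, 3 tools listed the position in exon 4, 2 the one in exon 2 and 1 the one in exon 1, all upstream of the replaced exons 5 to 7. In KO, 2 positions in exon 8 were listed by 1 tool each, Epinano and Tombo, 298 and 311 nt before the stop codon. With no read counts in the lists, fewer reads of an exon and fewer calls in it cannot be told apart.

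No member was listed in both libraries by more than 5 tools, and 4 members were by 5. Ldha, lactate dehydrogenase, held a member that Tombo, Nanom6A, ELIGOS, Epinano and xPore listed in both WT and KO, 200 nt before the stop codon, and the member in Polr2h, a subunit of the RNA polymerases, was listed by the same 5 tools in both. The Tkt member, in a gene of the pentose phosphate pathway, was 30 nt after the stop codon and was listed in both by 5 tools. The Gm15501 position is on a transcribed processed pseudogene, where reads of the parent gene cannot be told apart. The Rpl31 member, with 4 tools, came first in genomic order among 45 members with that number. In all, 49 members (0.0803%) were listed in both libraries by at least 4 tools, against 348 G-class positions (0.352%). At least 4 tools in WT or comparison lists and none in KO listed 35 members (0.0574%) and 1860 G-class positions (1.88%). MINES, which can list no member, is counted in both G-class numbers. None of the 5 positions shown for repetition was in a comparison list.

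Ctsd, which encodes a lysosomal protease, held the third of the members absent from KO, listed by 6 tools, 489 nt after the stop codon. A G-class position 18 nt away was listed by 8 tools in WT or comparison lists, among them all 3 comparison lists, and by 2 in KO. The Rps6ka1 member, in a kinase gene, was listed by 5 tools, Nanocompore among them, 193 nt after the stop codon. The Ube2f member, in a gene for a NEDD8-conjugating enzyme, was listed by 4 tools and by no comparison list. These 5 members without a KO listing were all in the last exon of their transcript, and 4 of them were in the 3'UTR, where 54.2% and 46.3% of all A-class positions on the transcripts lie.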

How the data were processed

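Direct RNA sequencing gave 1 library of WT and 1 of KO cells. The authors basecalled and aligned the reads to the GENCODE mouse transcriptome, ran 10 tools and deposited 17 lists in mm10 (GRCm38) coordinates. Per the labels and methods the values are positions with strand and transcript, without score, rate or read count, and the authors set each tool's cut-off where its F1 score, summed over the miCLIP and miCLIP2 site sets, was highest. The cut-off values were not used here. m6Anet was run with a higher read minimum than the other tools.

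Positions were made unique by chromosome, start and strand, and 5-mers were read from GRCm38. Each position was placed on a transcript of GENCODE M21 (the authors used an earlier release), which was not always the one its list named. Of the listed transcripts with an exon over it, coding ones came first, then those with the most lines in the lists. Of the listed identifiers 99.95% were found, and 155483 RRACH positions had a coding transcript with a stop codon. Of 16116 lines checked on the transcript they named, 96.8% gave the listed transcript position, allowing an offset of a base. The background was all RRACH positions of 14519 listed coding transcripts of 9982 genes. Shares have Wilson intervals, differences Newcombe intervals, ratios of numbers exact binomial intervals, and differences within genes are Mantel-Haenszel differences. A difference was read as larger than counting error where its 95% interval left out 0. The interval methods were tried on data simulated over the positions of the Nanom6A WT list. Shorter lists were not simulated, so the coverage of their intervals was not tested. Analyses used Python 3.11.15, pandas 2.3.3, scipy 1.17.1, pysam 0.24.0 and samtools 1.23.1.

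Named positions were the 5 with most tools in WT or comparison lists and none in KO, the 5 with most tools in both, all in 3 comparison lists, those in Mettl3 and those of comparison lists in the gene lists; named genes were the 10 with most members and the 10 with most in comparison lists, with ties in genomic or symbol order. Members, gene lists and tests were chosen with earlier results of these data known. Junction distance, the 5-mer pairs and TATAAACTG were added after the values were seen.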

Additional observations from a re-analysis of the deposited data

How the results depend on the processing

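Across the planned and added alternatives most differences kept their direction and their side of the threshold, an interval that leaves out 0. This held for all 7 alternatives of support by several tools, all 4 of the comparison lists by class and 64 of 66 of the list shares. It also held for 62 of 66 of stop codon proximity, 31 of 36 of KO repetition, 45 of 51 of junction proximity and 64 of 74 of the neighbouring positions. For comparison-list positions also in a KO list it held for 1 of 2. Sides taken within genes rest on intervals that are too narrow where genes hold few positions. All values below are differences in percentage points, A class minus G class unless stated, and the cause of each change was not tested.

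The list share passed the threshold for Nanom6A in WT against exons with listed positions (-0.668, listed minus background) and for ELIGOS in KO within genes (1.98). KO repetition turned negative when the share of KO positions listed in WT was taken (Tombo -10.6, Nanom6A -5.53, ELIGOS -5.66) and when a KO list of any tool counted (m6Anet -1.02, Epinano -2.64). For comparison-list positions in KO lists, leaving out Nanom6A gave -14.4. Stop codon proximity within genes was -0.415 for Tombo in KO, 2.90 for ELIGOS in KO and 12.7 for DRUMMER, and within 400 nt it was -2.45 for Nanocompore. Junction proximity within 200 nt was -0.351 for Tombo in WT and -0.558 for m6Anet in KO, within 50 nt -3.02 for ELIGOS in KO, and within genes 2.13, 2.36 and -10.1 for Nanocompore, DiffErr and DRUMMER.

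For neighbours (listed minus unlisted) Tombo in WT gave -1.54 where a G-class sequence lay within 5 nt and -0.134 within genes. Tombo in KO gave 1.78 within 10 nt, 4.40 within 20 nt, 0.255 with any list of the library, -6.17 where a G-class sequence lay within 5 nt and -0.293 within genes. Within genes ELIGOS in WT gave 0.118 and Nanocompore 0.1195, and DRUMMER gave 12.99 with any list. DRUMMER had no variation within genes and the planned distance of 3 nt allows no neighbour, so neither gave a value. No paired analysis was possible because each genotype has 1 library and nothing could be left out. Depth per position is unknown, so a position missing from a list may lack reads; MINES bears on no member, and DRUMMER and DiffErr values rest on few members.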
